A study of Rattus norvegicus with 138 samples.

Results

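The rostral ventrolateral medulla (RVLM) of 12 wk old female spontaneously hypertensive rats (SHRs) was compared with that of age-matched female Wistar-Kyoto (WKY) rats. The comparison holds 9 libraries, from 6 SHRs and 3 WKY rats, of the 46 RVLM libraries in the series. They were taken by the strain, age and region of their labels, and all genes that passed a filter on low counts entered the test. The SHRs (SHR/NHsd) and the WKY rats (WKY/NHsd) came from 1 vendor and were housed singly. Each library is the total RNA of bilateral punches of 1 rat, so the replicate is the animal, and the SHR is an inbred strain whose differences from WKY rats include inherited sequence differences as well as hypertension. Punches of the solitary tract nucleus (NTS) and of the caudal ventrolateral medulla (CVLM) of the same rats are also in the series, and rats of 8, 10, 16 and 24 wk.

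The RVLM contains the presympathetic neurons, among them the adrenaline-synthesizing C1 cells, whose axons drive the sympathetic preganglionic neurons of the spinal cord. Its activity is held down by GABAergic input from the CVLM, which in turn is driven by baroreceptor signals that enter through the NTS. Glutamate, GABA, acetylcholine, angiotensin II and nitric oxide acting in the RVLM are all known to alter sympathetic outflow and arterial pressure, and SHRs develop hypertension as young adults.

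The deposited values are expected counts per gene from RSEM, and total counts were 7986077 to 14991722 in SHRs and 8693210 to 11031034 in WKY rats. Of 32883 genes in the table, 13411 were tested. Levels of single rats are given below as counts scaled to 1000000 counts per library after TMM scaling (CPM), and differences as log2 fold changes of SHRs against WKY rats, with standard error (SE) and Benjamini-Hochberg adjusted p from edgeR's quasi-likelihood test. The libraries of SHR 1 and SHR 6 stood apart. In SHR 1 the summed level of complex I subunits was 19060 CPM, against 6014 to 10310 CPM in the other SHRs and 8326 to 10670 CPM in WKY rats, and cytosolic ribosomal proteins summed to 13870 CPM, against 3854 to 7478 CPM and 6033 to 7463 CPM. In SHR 6 the leptomeningeal and fibroblast markers summed to 203 CPM, against 73.7 to 94.0 CPM in the other SHRs and 80.7 to 96.2 CPM in WKY rats. For several results that changed without either library, the value without it is given beside them.

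Markers of catecholamine cells, which the labelled region holds, were present in every library. Phenylethanolamine N-methyltransferase (Pnmt), the enzyme that defines adrenaline-synthesizing cells, was at 9.21 to 53.2 CPM in SHRs and 5.20 to 30.6 CPM in WKY rats. Tyrosine hydroxylase (Th) was at 33.0 to 107 CPM in SHRs and at 7.85, 55.5 and 67.5 CPM in WKY rats, the lowest value being that of WKY 1. The groups overlapped for both genes, and WKY 1 was the lowest of all 9 rats for both. Choline acetyltransferase (Chat), a marker of motor neurons, averaged 223 CPM in SHRs and 218.5 CPM in WKY rats in the RVLM, against 65.0 and 87.1 CPM in the NTS and 14.2 and 20.8 CPM in the CVLM. The RVLM punches of both strains thus held cholinergic cells beside the catecholamine cells. In such bulk samples, fewer cells of a type and less RNA per cell cannot be told apart.

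With the adjusted p no higher than 0.01 and a log2 fold change of 1 or more in size, 129 genes (0.962% of those tested) were called different between the strains at 12 wk. In SHRs, 62 of them (0.462%) were higher and 67 (0.5%) were lower. At an adjusted p under 0.05 with no minimum fold, 228 genes passed (1.7%), 117 of them higher (0.872%) and 111 lower (0.828%). The values of the 2 groups did not overlap for any of the 129 called genes, against 4.3% of all tested genes, and the call itself favors such genes. Over all 13411 genes the median log2 fold change was 0.03, with 80% of genes between -0.28 and 0.37. Most differences were thus small, and 57 of the called genes exceeded 2 on the log2 scale. Of the called genes, 29 carry only a placeholder or clone name. Without SHR 1, 123 genes were called, 118 of them among the 129, and without SHR 6 there were 130, of which 120 were among them.

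**Figure D1:**
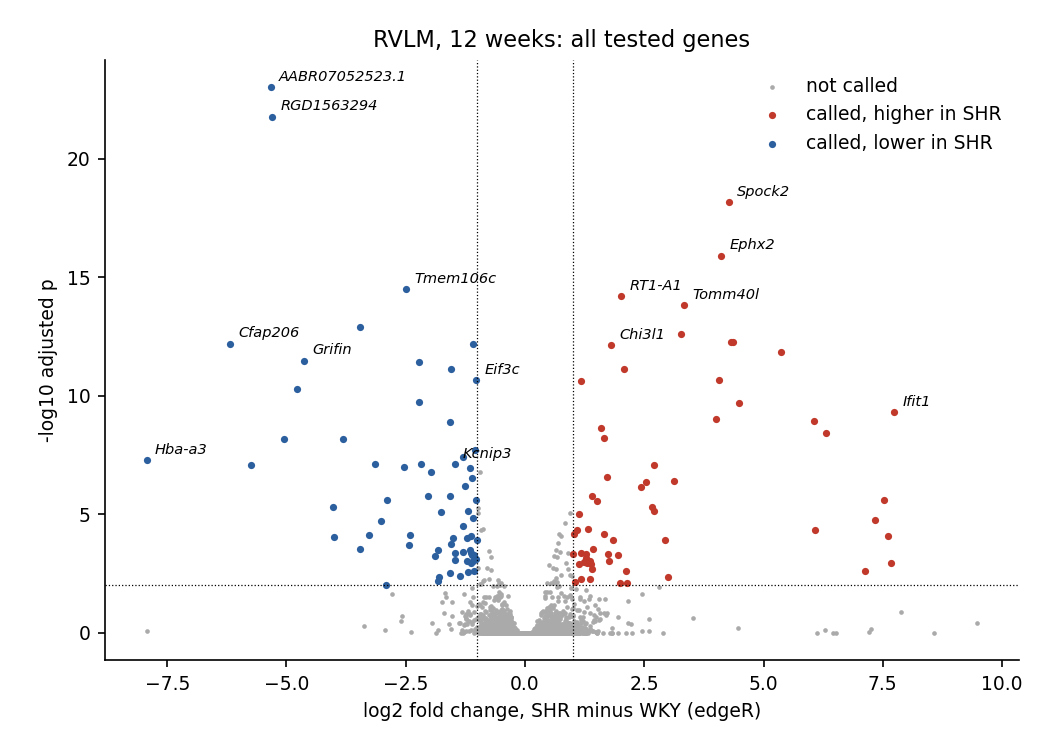
Each point is 1 of 13411 tested genes, with its log2 fold change of SHRs against WKY rats on the x axis and the -log10 of its adjusted p (edgeR) on the y axis. Dotted lines mark the thresholds of the call, red points are the 62 genes called higher and blue points the 67 called lower in SHRs, and the symbols name examples.

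The genes that were most higher in SHRs were nearly silent in WKY rats. Ifit1, an interferon-induced protein that binds foreign RNA, had a lowest, median and highest level of 11.3, 15.6 and 29.9 CPM in SHRs, and 0, 0.0902 and 0.111 CPM in the WKY rats. Its log2 fold change was 7.75 (SE 0.74, adjusted p = 4.76e-10, edgeR). Since the WKY libraries held 2 counts in all against 1063 in the SHR libraries, the ratio of 252 has a 95% counting interval of 69.6 to 2090, which covers counting error only. Lilrb3a, an inhibitory receptor of leukocytes, was at 4.11, 7.80 and 10.3 CPM in SHRs (lowest, median, highest), and at 0.347, 0 and 0 CPM in WKY rats. Its ratio of counts was 77.8 (interval 26.5 to 379) and its log2 fold change 6.05 (SE 0.60, adjusted p = 1.11e-09, edgeR). Apoa5, an apolipoprotein known for its control of plasma triglycerides, was at 7.29, 9.48 and 10.9 CPM in SHRs and at 0.231, 0.632 and 0.332 CPM in WKY rats (log2 fold change 4.49, SE 0.43, adjusted p = 2.03e-10, edgeR).

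Spock2, a proteoglycan of the extracellular matrix, had higher levels than the genes above. Its lowest, median and highest levels in SHRs were 170, 237 and 266 CPM, and the WKY rats were at 12.6, 11.6 and 11.5 CPM. SHR 6 was the lowest of the SHRs and still far above every WKY rat. The mean level was 230.5 ± 32.1 CPM (SD, n = 6) against 11.9 ± 0.593 CPM (SD, n = 3), which is 4.27 on the log2 scale (SE 0.22, adjusted p = 6.96e-19, edgeR). Ephx2, the soluble epoxide hydrolase that degrades vasodilator epoxides of arachidonic acid and a known SHR candidate gene, was at 28.3, 31.1 and 33.6 CPM in SHRs and at 1.62, 1.62 and 2.10 CPM in WKY rats. The spread within each strain was small beside this difference, which had a log2 fold change of 4.11 (SE 0.24, adjusted p = 1.23e-16, edgeR).

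Several other genes with a symbol were higher by a smaller fold. The desmosomal protein gene Pkp1 was 3.995 higher on the log2 scale (8.42 against 0.509 CPM), and Tomm40l, a relative of the import channel of the outer mitochondrial membrane, 3.33 higher (54.7 against 5.44 CPM). Pxmp4, which encodes a peroxisomal membrane protein, had a log2 fold change of 3.28 (38.9 against 3.997 CPM), and Tmem94 one of 3.12 (35.9 against 4.12 CPM). Ptprn2, a phosphatase-like protein of dense-core vesicles, was at 54.5, 116 and 152 CPM in SHRs and at 14.8, 18.4 and 15.7 CPM in WKY rats. SHR 1 and SHR 4 were the 2 lowest SHRs, and both were above the highest WKY rat. Its log2 fold change was 2.70 (SE 0.40, adjusted p = 7.18e-06, edgeR). The placeholders with the highest fold among those with enough counts were AC127140.1 (log2 fold change 6.31), AABR07064061.1 (5.36) and LOC100911830 (4.37).

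In the opposite direction, Cfap206, a protein of motile cilia, was at 9.01, 12.4 and 13.6 CPM in WKY rats and at no more than 0.440 CPM in any SHR (log2 fold change -6.18, SE 0.48, adjusted p = 6.36e-13, edgeR). The list of motile cilium genes as a whole did not move with it: of 16 tested members, 0 passed an adjusted p of 0.05, and their summed level was 34.8 to 47.4 CPM in SHRs and 37.5 to 40.5 CPM in WKY rats. Grifin, a galectin-related protein known from the lens, was at 221, 167 and 94.97 CPM in WKY rats, and its lowest, median and highest levels in SHRs were 3.69, 6.19 and 11.8 CPM. The lowest WKY rat was above every SHR (log2 fold change -4.63, SE 0.38, adjusted p = 3.29e-12, edgeR). The gene with the lowest p in the comparison was the placeholder AABR07052523.1, at 628, 614 and 578 CPM in WKY rats and at 7.44 to 18.2 CPM in SHRs (log2 fold change -5.33, SE 0.19, adjusted p = 9.55e-24, edgeR). RGD1563294 (-5.31) and AABR07057196.1 (-3.46) were the next placeholders.

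The other lower genes named for the size of their difference serve varied functions. Tstd1, a small sulfurtransferase-like protein, had a log2 fold change of -3.81 (1.17 against 15.5 CPM), and Lrsam1, a ubiquitin ligase, one of -3.02 (1.42 against 11.4 CPM). For Ncaph, a subunit of the condensin complex, the value was -2.89 (0.830 against 6.03 CPM). Tmem106c was at 46.4, 44.5 and 41.9 CPM in WKY rats and at 5.92, 8.05 and 9.01 CPM in SHRs (lowest, median, highest), so that both strains were tight and far apart (log2 fold change -2.50, SE 0.16, adjusted p = 3.16e-15, edgeR). Haghl (-2.22), the actin-binding Aif1l (-2.21) and Serhl2 (-2.18) followed. Epb41l1, which encodes the neuronal band 4.1 protein that links membrane receptors to the cytoskeleton, was at 38.5, 61.2 and 62.9 CPM in WKY rats and at 11.2, 13.3 and 17.3 CPM in SHRs (log2 fold change -1.96, SE 0.24, adjusted p = 1.6e-07, edgeR). The last of them, Pld5, had a log2 fold change of -1.80 (SE 0.40, adjusted p = 0.00434, edgeR), and was no longer a call without SHR 1, SHR 6 or any 1 WKY rat (adjusted p 0.0136 to 0.0506).

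**Figure D2:**
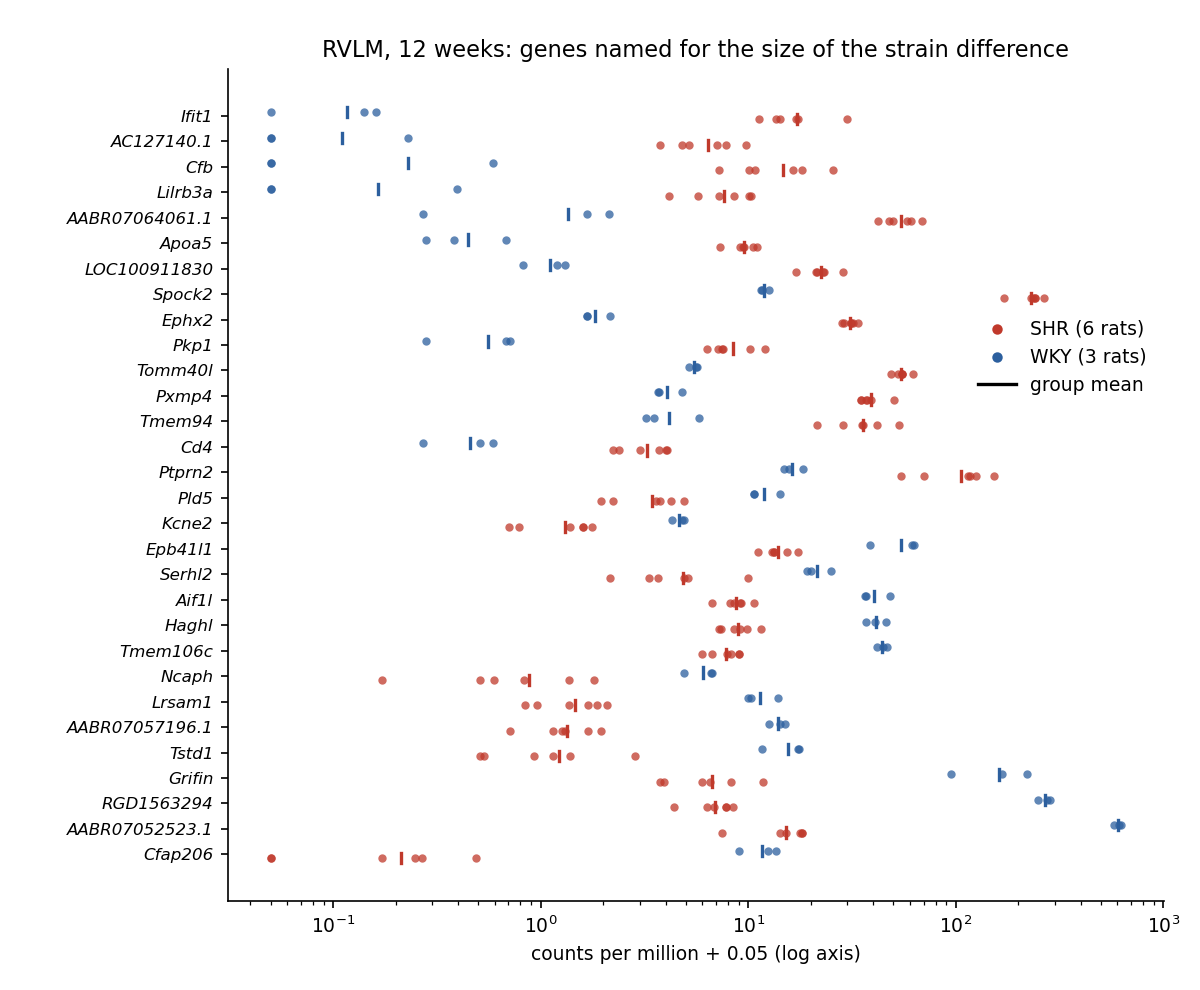
Levels of the 30 genes named for the size of their difference, with 1 row per gene and CPM plus 0.05 on a log axis. Red points are the 6 SHRs, blue points the 3 WKY rats and short vertical lines the group means, and in each row the red and blue points do not overlap.

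Some symbols have more than 1 gene model, and the call of a single model need not hold for the sum. Complement factor B (Cfb), the protease of the alternative complement pathway, has 2 identifiers in the table. The first was at 7.19, 13.6 and 25.5 CPM in SHRs (lowest, median, highest) and at 0, 0.541 and 0 CPM in WKY rats (log2 fold change 6.09, SE 0.97, adjusted p = 4.65e-05, edgeR). The second was at 0 to 20.3 CPM in SHRs and at 16.98, 23.1 and 23.2 CPM in WKY rats (log2 fold change -0.79, adjusted p = 0.999, edgeR). Summed over both, Cfb was at 22.8 to 33.0 CPM in SHRs and 16.98 to 23.6 CPM in WKY rats, with a log2 fold change of 0.33 (SE 0.21, adjusted p = 0.999, edgeR), so that the call of the first identifier did not hold for the gene. For the called gene Ndufa10l1, which also has 2 identifiers, the sum kept its difference (log2 fold change -1.06, SE 0.12, adjusted p = 1.83e-08, edgeR). Hba-a3, an alpha-globin, had 0 counts in all 6 SHRs and 3.00, 3.61 and 1.44 CPM in WKY rats, which is at least 55.5-fold lower if 3 counts over the 6 libraries are taken as the floor, and the sum of Hba-a1, Hba-a2 and Hba-a3, of which Hba-a3 is a small part, had a log2 fold change of -0.67 (SE 0.32, adjusted p = 0.719, edgeR). That sum does not show whether Hba-a3 counts went to another model in SHRs.

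The lists of transmitter, receptor and channel genes, chosen for what the RVLM is known for, moved little. Over all 44 lists, 675 distinct members were tested, and 20 of them (2.96%, against 1.7% of all genes) had an adjusted p under 0.05, 10 higher and 10 lower in SHRs. Of these, 13 were called. No member passed in 31 of the lists. The lists were picked with earlier results of these data known, so a share above that of all genes is a description.

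The enzymes and transporters of catecholamine neurons had 0 of 11 tested members past an adjusted p of 0.05, with a median log2 fold change of 0.14. Th had a log2 fold change of 0.54 (SE 0.55), dopamine beta-hydroxylase (Dbh) of 0.66 (SE 0.68) and Pnmt of 0.46 (SE 0.69), each with an adjusted p of 0.999 in edgeR. These standard errors are larger than the estimates or close to them, so differences of that size in these genes were not detectable with these rats. Without WKY 1 the log2 fold changes were 0.05 for Th, 0.17 for Dbh and 0.01 for Pnmt. The summed level of the list was 471 to 626 CPM in SHRs and 412, 504 and 575 CPM in WKY rats. The adrenergic receptors had 0 of 6 (Adra2a, the receptor through which clonidine-like drugs act, 0.96, adjusted p = 0.817, edgeR). The cholinergic list had 0 of 5, with log2 fold changes between -0.07 and 0.18.

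Receptors for fast transmitters followed the same picture. Of 21 glutamate receptor genes 0 passed, and their log2 fold changes ran from -0.23 (Grik4) to 0.50 (Grik5). Of 6 genes of glycine transport and reception 0 passed, with the glycine receptor subunit Glra2 at 7.17 CPM in SHRs and 3.88 CPM in WKY rats (log2 fold change 0.89, adjusted p = 0.54, edgeR) and no overlap between the groups. Of 8 acetylcholine receptor genes 0 passed. The nicotinic subunit Chrna2 was at 0.147 to 1.33 CPM in SHRs and at 2.54, 2.26 and 1.66 CPM in WKY rats (log2 fold change -1.35, SE 0.53, adjusted p = 0.399, edgeR), and Chrna4 at 20.8 against 34.4 CPM on average (-0.72, adjusted p = 0.713).

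The GABA list had 1 lower member among 21. Abat, the transaminase that breaks GABA down, was at 58.1, 89.8 and 118 CPM in SHRs (lowest, median, highest) and at 128.7, 137.6 and 122 CPM in WKY rats. The groups did not overlap, but SHR 1 was within 5 CPM of the lowest WKY rat. Its log2 fold change was -0.55 (SE 0.14, adjusted p = 0.0196, edgeR), and the adjusted p was 0.0522 to 0.179 without SHR 4, SHR 6, WKY 1 or WKY 2. The synthesizing enzymes Gad1 (0.27) and Gad2 (0.17) and the vesicular transporter Slc32a1 (0.37) had an adjusted p of 0.999.

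Of the ion channel lists, only that of potassium channels and their partners had members that passed, 2 of 41, both lower in SHRs. Kcnip3, a calcium-binding subunit of A-type Kv4 channels that also acts as the transcriptional repressor DREAM, was at 15.3, 20.5 and 24.2 CPM in SHRs and at 51.1, 66.7 and 49.0 CPM in WKY rats. All SHRs lay at less than the lowest WKY rat, and the difference was -1.48 on the log2 scale (SE 0.18, adjusted p = 7.49e-08, edgeR). Kcne2, an accessory subunit of several potassium channels, was at 0.657, 1.44 and 1.71 CPM in SHRs and at 4.74, 4.24 and 4.87 CPM in WKY rats (log2 fold change -1.83, SE 0.33, adjusted p = 0.000334, edgeR). Kcne2 is also strongly expressed in the choroid plexus, and the choroid plexus markers of the RVLM libraries summed to 2.20 to 10.1 CPM in SHRs and 4.06 to 6.01 CPM in WKY rats. Their part in the difference was not tested. Among the other potassium channel genes, Kcnip2 varied widely between SHRs, from 2.30 to 17.2 CPM, against 2.42 to 4.15 CPM in WKY rats (log2 fold change 1.48, SE 0.86, adjusted p = 0.943, edgeR). The 11 sodium and 22 calcium channel genes had 0 members that passed, with medians of 0.05 and 0.07.

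No member of the pressor lists passed. In the renin-angiotensin list 0 of 10 passed. Angiotensinogen (Agt), with 1245 and 1082 CPM its most abundant member, had a log2 fold change of 0.20, the type 1 receptor Agtr1a one of 0.39 and the type 2 receptor Agtr2 one of -0.57 (adjusted p = 0.708, edgeR). In the list of nitric oxide and oxidative stress genes 0 of 17 passed. Its largest value belonged to Cybb, the catalytic subunit of the phagocyte NADPH oxidase, at 1.75 to 4.21 CPM in SHRs and 0.808 to 1.22 CPM in WKY rats (log2 fold change 1.45, SE 0.48, adjusted p = 0.18, edgeR). Of 24 neuropeptide genes 0 passed (Calca, which encodes calcitonin gene-related peptide, 435 against 272 CPM, adjusted p = 0.311), nor did any of 27 neuropeptide receptor and 22 vesicle release genes.

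**Figure D3:**
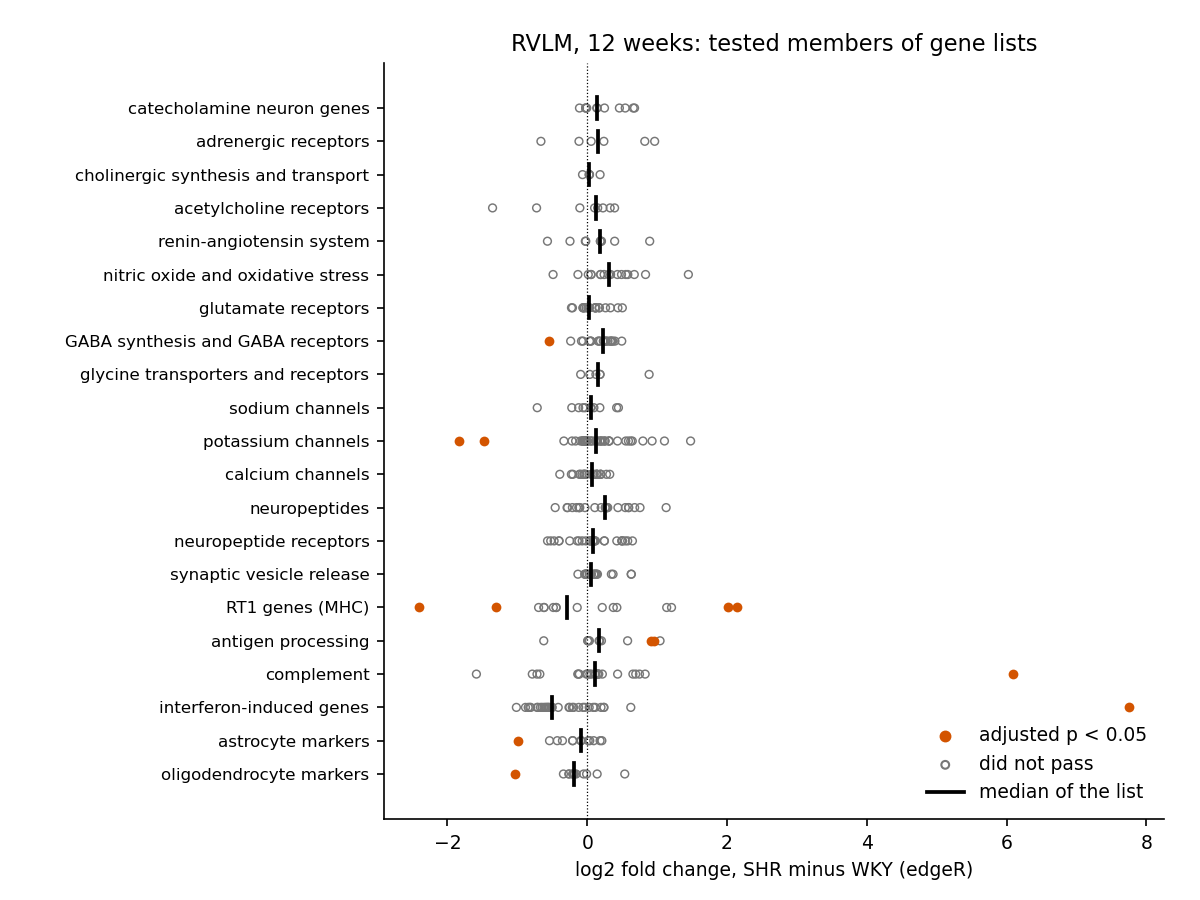
Log2 fold changes of SHRs against WKY rats (x axis, edgeR) of the tested members of 21 lists, 1 row per list. Filled orange points have an adjusted p under 0.05, open points do not, and black lines are the median of each list. The filled points are few and lie mostly in the immune, potassium channel and glial rows.

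Major histocompatibility genes, called RT1 in the rat, differed in both directions. Class I molecules show peptides to CD8 T cells and are also found on neurons, while class II molecules are found on microglia and other antigen-presenting cells. Of 16 tested RT1 genes, 2 were higher and 2 lower in SHRs at an adjusted p under 0.05. RT1-A1, a class I gene, was at 131, 138.4 and 161 CPM in SHRs (lowest, median, highest) and at 35.7, 34.4 and 34.9 CPM in WKY rats. The WKY rats were within 2 CPM of each other, and the log2 fold change was 2.01 (SE 0.13, adjusted p = 6.14e-15, edgeR). Its neighbor RT1-A2 was at 2.96, 3.68 and 5.10 CPM in SHRs and at 10.6, 8.93 and 8.96 CPM in WKY rats, a difference in the opposite direction (log2 fold change -1.30, SE 0.21, adjusted p = 3.11e-05, edgeR). RT1-N2 was lower too, at 0.364 to 1.42 CPM against 3.81, 5.77 and 3.32 CPM (log2 fold change -2.40, adjusted p = 7.24e-05). The class II gene RT1-Db1 was at 1.27 to 3.62 CPM in SHRs and 0.361 to 0.663 CPM in WKY rats (log2 fold change 2.15, SE 0.59, adjusted p = 0.0453, edgeR), and with each rat left out its adjusted p ran from 0.0331 to 0.373, over 0.05 without SHR 1, 3, 4 or 6 or any 1 WKY rat. The class II gene RT1-Da and the peptide loading gene RT1-DMb had log2 fold changes of 1.14 and 1.21, and RT1-DMa had one of -0.62, each with an adjusted p of 0.999.

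In the rat RefSeq annotation (GRCr8), RT1-A2 and RT1-A1 are adjacent among the tested genes, and they read in the same direction. The 250 bases upstream of their annotated starts are shown because the pair moved in opposite directions while the sequences are similar. Aligned over 203 columns, 184 (90.6%) were identical and 3 held a gap. RT1-A1 lies on the plus strand with the window chr20:4906959-4907208, and RT1-A2 on the plus strand with the window chr20:4872621-4872870.
RT1-A1: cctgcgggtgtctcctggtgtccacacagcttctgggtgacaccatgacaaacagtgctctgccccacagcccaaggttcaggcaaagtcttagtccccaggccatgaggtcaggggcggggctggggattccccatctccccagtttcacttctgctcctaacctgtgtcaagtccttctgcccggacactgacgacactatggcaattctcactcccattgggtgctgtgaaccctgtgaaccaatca
RT1-A2: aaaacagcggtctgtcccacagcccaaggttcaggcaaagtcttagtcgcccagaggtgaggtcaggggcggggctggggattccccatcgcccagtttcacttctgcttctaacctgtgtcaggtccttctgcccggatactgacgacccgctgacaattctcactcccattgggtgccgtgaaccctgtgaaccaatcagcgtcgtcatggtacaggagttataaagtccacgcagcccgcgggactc
The windows are of the reference strain and not of the rats measured here. The aligned bases lie upstream of the starts, and the similarity of the transcripts was not measured. Reads of genes with similar transcripts can be divided between them by the counting. Whether this takes part in the opposite directions was not tested.

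Genes that prepare peptides for class I molecules moved with RT1-A1 in 2 of 12 cases. Tapbp, which encodes tapasin, the protein that holds class I molecules at the peptide transporter, was at 41.3, 62.6 and 67.1 CPM in SHRs and at 28.5, 34.9 and 32.6 CPM in WKY rats (log2 fold change 0.91, SE 0.19, adjusted p = 0.00211, edgeR). SHR 6 was the lowest SHR. Psmb8, a subunit of the immunoproteasome, was at 10.0, 13.8 and 19.4 CPM in SHRs and at 6.24, 8.21 and 7.74 CPM in WKY rats (log2 fold change 0.95, SE 0.21, adjusted p = 0.00359, edgeR; 0.0726 without WKY 1). Both stayed under the fold of the call. Beta-2 microglobulin (B2m), the constant chain of class I molecules, had a log2 fold change of 0.20 (adjusted p = 0.999), and the transporter subunits Tap1 and Tap2 had -0.62 and 1.04 (adjusted p = 0.483 and 0.423, edgeR).

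The promoter of Tapbp is shown for its 2 overlapping matches to GAAANNGAA, the core of the interferon-stimulated response element, in capitals. The window is chr20:4967878-4968127 on the minus strand (GRCr8, RefSeq), printed 5′ to 3′ toward the start, and the nearer match ends 11 bases before the start.
Tapbp: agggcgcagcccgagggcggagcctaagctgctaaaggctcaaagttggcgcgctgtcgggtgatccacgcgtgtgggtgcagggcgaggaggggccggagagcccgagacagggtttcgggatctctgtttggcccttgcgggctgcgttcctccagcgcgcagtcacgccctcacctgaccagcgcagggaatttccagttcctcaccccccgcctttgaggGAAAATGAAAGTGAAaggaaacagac
The motif was searched on both strands (as TTCNNTTTC on the other) in windows of 250 bases before and 50 bases after each start, and 3251 of 33469 promoters (9.71%) held it. Psmb8 had 1 match, which spans its start, and RT1-A1, RT1-A2, RT1-Db1 and RT1-N2 had no match to this pattern in these windows. Variants of the motif were not searched. The printed windows of RT1-A1 and RT1-A2 both hold tttcacttc, which neither form of the pattern covers, so no match does not mean that such an element is absent. A match is a description of letters and not of binding.

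In the list of interferon-induced genes, no member other than Ifit1 passed the test. Of 33 tested members, Ifit1 alone passed, 25 had a negative log2 fold change, and the median was -0.50, against 0.03 over all genes. At an unadjusted p under 0.05, 7 members were lower and 2, Ifit1 among them, were higher. Mx2, an antiviral dynamin-like GTPase, was at 34.6 to 71.9 CPM in SHRs and at 62.0, 98.7 and 119 CPM in WKY rats (log2 fold change -0.81, SE 0.25, adjusted p = 0.13, edgeR). Its groups overlapped through WKY 1. The median of the list in the RVLM was -0.08 (8 wk), 0.04 (10 wk), -0.45 (16 wk) and -0.21 (24 wk), and at 12 wk it was -0.64 in the NTS and -0.62 in the CVLM of the same rats. Of 24 complement identifiers, the first Cfb identifier alone passed, and the 3 chains of C1q (C1qa, C1qb and C1qc) had log2 fold changes between 0.01 and 0.11.

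Among markers of blood cells, Cd4, the co-receptor of helper T cells that rat macrophages also carry, was at 2.18, 3.32 and 4.01 CPM in SHRs and at 0.462, 0.541 and 0.221 CPM in WKY rats (log2 fold change 2.93, SE 0.50, adjusted p = 0.000121, edgeR). The general leukocyte marker Ptprc was at 3.87 against 2.63 CPM (adjusted p = 0.898) and lysozyme (Lyz2) at 59.6 against 53.5 CPM (adjusted p = 0.999). None of 12 microglia markers passed, and their sum was 261 to 304.5 CPM in SHRs and 285 to 335 CPM in WKY rats.

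Glial genes gave 2 lower members. S100b, a calcium-binding protein of astrocytes, was at 958.5, 1438 and 1927 CPM in SHRs (lowest, median, highest) and at 3027, 2926 and 2606 CPM in WKY rats. SHR 1 was the highest SHR, and no SHR reached the lowest WKY rat. The log2 fold change was -0.99 (SE 0.15, adjusted p = 8.93e-06, edgeR), just under the fold of the call. Without SHR 1 the log2 fold change was -1.08 (adjusted p = 1.29e-06, edgeR), which is past that fold. The 13 astrocyte markers summed to 6281 to 7668 CPM in SHRs and 8218 to 9064 CPM in WKY rats, which do not overlap, and without S100b to 5047 to 6102 and 5612 to 6138 CPM, which do. Mobp, a protein of compact myelin, was at 235, 321 and 379 CPM in SHRs and at 674, 645.5 and 655 CPM in WKY rats (log2 fold change -1.03, SE 0.14, adjusted p = 2.58e-06, edgeR; -0.96 without SHR 6). The oligodendrocyte markers without Mobp also summed to less in every SHR (40580 to 47150 CPM) than in any WKY rat (48040 to 51640 CPM). A negative log2 fold change was seen in 12 of the 14 markers, against 5766 of all 13411 genes. The median of the list was -0.19 at 12 wk, and -0.05, -0.01, -0.15 and 0.006 at 8, 10, 16 and 24 wk. At 12 wk it was 0.51 in the NTS and -0.07 in the CVLM of the same rats. The abundant myelin gene Mbp (-0.20) had an adjusted p of 0.999. The part of the myelin content of the punches in the Mobp difference was not tested.

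The list of glutathione and xenobiotic enzymes had 2 higher and 1 lower member that passed, with a median log2 fold change of 0.05. The largest log2 fold change of the list, 6.45, belonged to a member that did not pass. Besides Ephx2, the theta-class glutathione transferase genes Gstt3 (116 against 72.9 CPM, log2 fold change 0.67, adjusted p = 0.000638) and Gstt2 (5.38 against 9.76 CPM, -0.87, adjusted p = 0.00582) differed in opposite directions among 22 tested genes (edgeR). Without WKY 3 the adjusted p of Gstt2 was 0.0853. Cbs, the enzyme that makes cystathionine and hydrogen sulfide, is not a member of that list. It was at 36.9, 42.6 and 49.3 CPM in SHRs and at 14.4, 16.2 and 21.0 CPM in WKY rats (log2 fold change 1.31, SE 0.21, adjusted p = 4.27e-05, edgeR). Of the 14 collagen genes, Col16a1 was lower in SHRs (8.07 against 18.4 CPM, log2 fold change -1.19, adjusted p = 0.00273, edgeR; 0.0368 without WKY 1 and 0.0138 without WKY 2).

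Nppa, the precursor of atrial natriuretic peptide and a known SHR candidate gene, varied widely among SHRs. It was at 40.4 CPM in SHR 1, at 18.5 CPM in SHR 4 and at 6.02 to 8.92 CPM in the other SHRs, and at 4.50, 4.51 and 2.21 CPM in WKY rats. All SHRs lay above all WKY rats. The log2 fold change was 1.997 (SE 0.46, adjusted p = 0.00831, edgeR), and without SHR 1 it was 1.43 with an adjusted p of 0.0354. The call was also lost without SHR 4 (0.0196) and without WKY 1, 2 or 3 (adjusted p of 0.0368, 0.0386 and 0.157). At the other ages the log2 fold change was 0.96, 0.24, 1.11 and 1.26 at 8, 10, 16 and 24 wk, with none called.

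A list of 46 genes was taken from what the paper names for the RVLM. Some of them, such as Abat and Kcnip3, it names across regions. Lilrb3a and the RT1 genes, which it also names across regions, are not in the list. Lilrb3a and several RT1 genes passed, as given above, so the count below is without them. All 46 were tested at 12 wk, and 2 of them passed an adjusted p of 0.05, the lower genes Kcnip3 and Abat. Of all tested genes, 1.7% passed. The median log2 fold change of the 46 was 0.11. Several figures of the paper mark genes at a looser limit than the one used here. The codes for higher or lower that it gives a gene at each age rest on fold change alone. The count above is therefore not a test of what the paper reports for these genes. The paper names many of these genes for other ages. It reports Scn9a as higher in the RVLM of SHRs except at 12 wk, and proposes that release processes with Sv2c and Cplx2 are perturbed there at 8 wk. The voltage-gated sodium channel gene Scn9a was at 5.82 to 9.91 CPM in SHRs and 4.09 to 7.85 CPM in WKY rats (log2 fold change 0.10, SE 0.40), and the vesicle protein genes Sv2c and Cplx2 had log2 fold changes of 0.63 (SE 0.33, adjusted p = 0.823) and 0.06 (SE 0.32, adjusted p = 0.999, edgeR).

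The other ages are other rats and so show whether a strain difference at 12 wk was seen again. Called with the same sign were 104 of the 129 genes (80.6%) in the rats of 8 wk, 110 (85.3%) in those of 10 wk, 102 (79.1%) in those of 16 wk and 95 (73.6%) in those of 24 wk. They make up 47.3%, 71%, 83.6% and 73.1% of the genes called at those ages, which were 220 (1.64% of those tested), 155 (1.16%), 122 (0.91%) and 130 (0.969%). All 129 had the same sign at each of the other 4 ages, and 0 were called in the opposite direction. Of the 129 genes, 81 were called at all 4 other ages, 21 at 3, 4 at 2, 16 at 1 and 7 at none. The last 7 were Lss, a sterol synthesis enzyme, C1qtnf9, LOC100174910, the signaling adapter Traf6, F11r, Smpdl3b and Nppa. For Lss the log2 fold change was -1.12 at 12 wk and -0.80, -0.92, -0.998 and -0.66 at 8, 10, 16 and 24 wk, and for Traf6 -1.12 against -0.37, -0.97, -0.93 and -0.55. A call at 12 wk alone is not a test of a difference between ages.

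**Figure D4:**
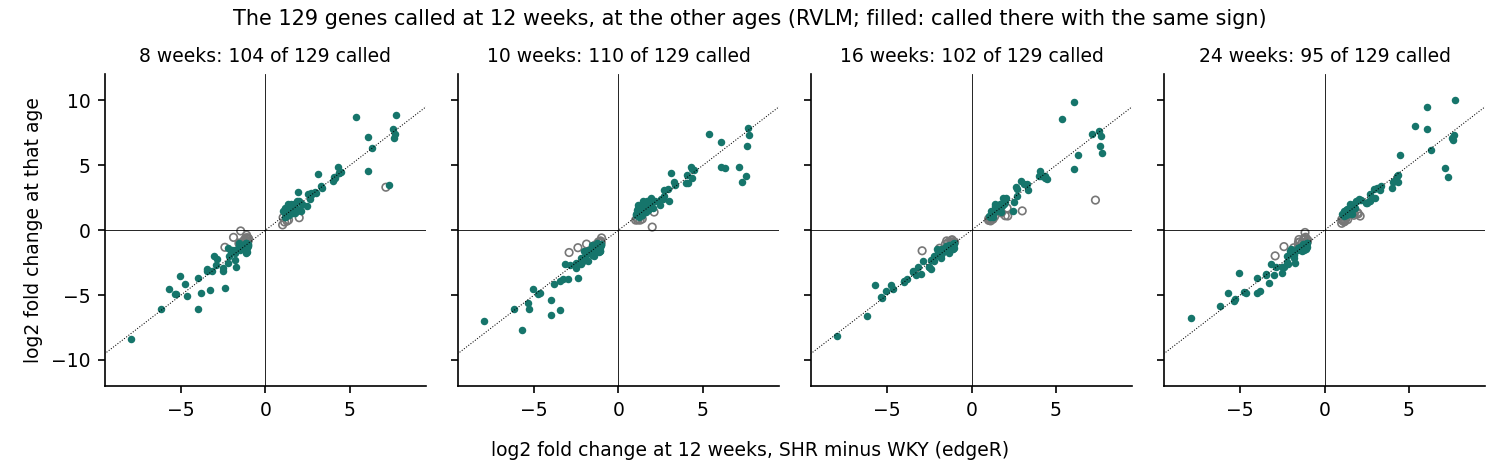
Each panel plots the 129 genes called at 12 wk with their log2 fold change at 12 wk on the x axis and at 8, 10, 16 or 24 wk on the y axis (edgeR, RVLM). Filled points were also called at that age with the same sign (104, 110, 102 and 95 genes), open points were not, the dotted line marks equal values, and no point lies in a quadrant of opposite signs.

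That test, of the strain effect at 12 wk against its mean at the other 4 ages, found 1 gene at an adjusted p under 0.05 (0.00746% of 13411), the placeholder AABR07064061.1. In SHRs it was at 42.0 to 69.0 CPM at 12 wk and at 39.0 to 74.9 CPM at the other ages. The WKY rats of 12 wk were at 2.08, 1.62 and 0.221 CPM, and no WKY rat of another age exceeded 0.623 CPM. The gene remained much higher in SHRs at every age, and its log2 fold changes were 8.76 (8 wk), 7.42 (10 wk), 5.36 (12 wk), 8.58 (16 wk) and 8.06 (24 wk). The contrast was -2.84 (SE 0.53, adjusted p = 0.0434, edgeR), and it did not pass without SHR 2 (adjusted p 0.0815), SHR 3 (0.0852), SHR 4 (0.0595), SHR 5 (0.0599), SHR 6 (0.0827), WKY 1 (0.891) or WKY 2 (1). At an unadjusted p under 0.05 there were 389 genes, and the next adjusted p was 0.959. Among the genes with the next lowest p, Gper1, the membrane estrogen receptor, was at 3.55 to 4.37 CPM in SHRs and at 6.00, 4.15 and 5.42 CPM in WKY rats at 12 wk, where its log2 fold change was -0.36 against 0.66, 0.47, 0.74 and 0.53 at 8, 10, 16 and 24 wk (contrast -0.96, SE 0.26, adjusted p = 0.959).

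Punches of the NTS and CVLM from the same 9 rats were compared in the same way. Of the 129 genes, 89 (69%) were called with the same sign in the NTS and 101 (78.3%) in the CVLM, 81 of them in both, and 0 with the opposite sign. These are 53.3% of the 167 genes called in the NTS (1.21% of those tested there) and 75.9% of the 133 called in the CVLM (0.992%). The regions share their rats, so this is not a repeat in other animals. Of the 129 genes, 124 were tested in the NTS and 125 in the CVLM. Called in neither other region were 20 genes, of which 5 were also called at no other age in the RVLM. Among the 20, Ocm2, Mocos and Col9a1 were tested in neither other region, so they could not be called there. Some of the 20 were close to the threshold elsewhere. Eif3c, a subunit of the translation initiation factor eIF3, had a log2 fold change of -1.02 in the RVLM and of -0.96 in both the NTS and the CVLM. Others were far apart: Nov, a matricellular protein, had 2.44 in the RVLM, 0.16 in the NTS and 0.18 in the CVLM, and Pcp4l1 had 1.17, 0.47 and -0.01.

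The difference between regions was tested with the rat as a block. Against the CVLM, 0 of 13116 genes (0%) had an adjusted p under 0.05 for the strain effect in edgeR, with 487 at an unadjusted p under 0.05 a lowest adjusted p of 0.208 and 0 genes also in limma voom. That value belonged to Pcp4l1, whose level in the RVLM was 401.5 to 823.5 CPM in SHRs and 306, 280.1 and 200.5 CPM in WKY rats, against means of 227 and 228 CPM in the CVLM (difference of the log2 fold changes 1.14, SE 0.20).

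Against the NTS, 8 genes passed (0.061%). Cbs was the single one of them with a strain difference that passed in the RVLM. In the NTS it was at 55.1 to 88.8 CPM in SHRs and at 56.2, 83.7 and 54.5 CPM in WKY rats, which overlap, and its log2 fold change of 1.31 in the RVLM exceeded that in the NTS by 1.15 (SE 0.20, adjusted p = 0.0373, edgeR). With each rat left out, the adjusted p of this difference ran from 0.0213 (without WKY 3) to 0.344 (without WKY 2) in edgeR. Without SHR 6 it was 0.0905. In the CVLM the log2 fold change of Cbs was 0.97. For the growth factor binding protein gene Igfbp5, the RVLM held 8.96 to 18.8 CPM in SHRs and 7.51, 10.5 and 14.6 CPM in WKY rats, while the NTS held 16.9 to 35.1 CPM and 128, 171 and 83.7 CPM (difference 2.71, SE 0.41, adjusted p = 0.022, edgeR). For Igfbp5 the adjusted p ran from 0.00476 (without WKY 3) to 0.243 (without WKY 2) and was 0.0561 without SHR 6 (edgeR). The other genes with a more positive effect in the RVLM were Terf2ip (0.95), Amhr2 (1.69), Ttc21a (2.02) and the complement protease C1r (1.10). Those with a more negative one were the retinoic acid synthesis enzyme Aldh1a1 (-1.02) and Sema7a (-1.17).

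The NTS punches of the WKY rats also differed in content. Their choroid plexus markers summed to 12.6, 4663 and 847 CPM, against 6.10 to 10.2 CPM in SHRs, and their motile cilium genes to 234 to 426 CPM, against 85.0 to 208 CPM. In the RVLM these sums overlapped between the strains. Without WKY 2, the rat with the highest choroid plexus sum, 0 genes passed in this comparison. Without SHR 3, SHR 4 or WKY 1 there were 3, without SHR 6 or WKY 3 there were 2, and without SHR 5 there was 1. The part of the punch content in the 8 genes was not tested.

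**Figure D5:**
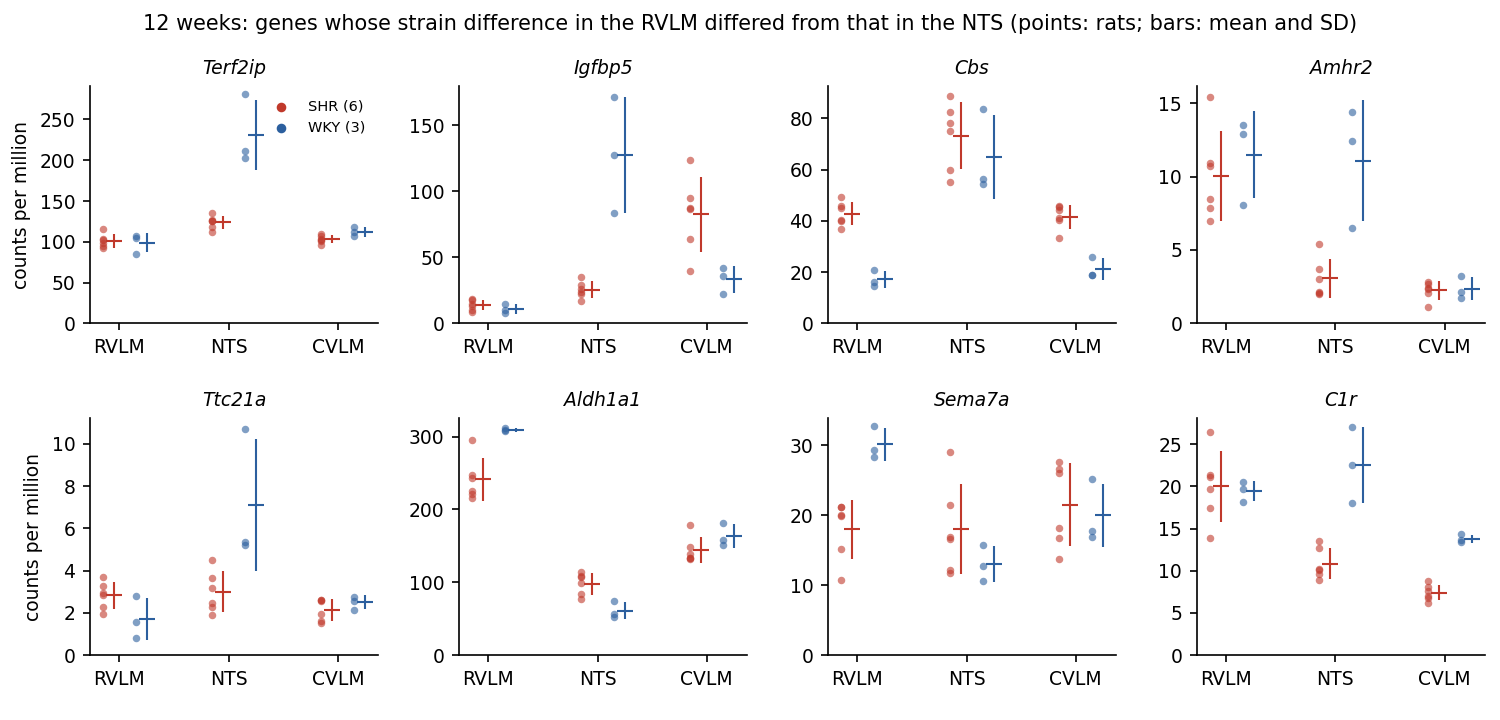
Levels in CPM (y axis, from 0) of the 8 genes whose strain difference in the RVLM differed from that in the NTS, in the RVLM, NTS and CVLM of the same rats. Red points are the 6 SHRs, blue points the 3 WKY rats, and bars are mean and SD. For Igfbp5 the WKY rats stand above the SHRs in the NTS alone, and for Cbs the strains are apart in the RVLM and CVLM but overlap in the NTS.

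Called genes were also placed in the gene order of the RefSeq annotation (GRCr8), in which 12361 tested genes and 101 of the 129 called genes could be found by symbol. Of the 101, 7 (6.93%) had a called gene as next neighbor among tested genes, against 1.62% of all placed genes, and 27 (26.7%) had one within 10 tested genes on either side, against 14.1%. A run of 3 neighboring genes was higher in SHRs: Pcp4l1 (1.17), the nuclear receptor gene Nr1i3 (1.37) and Tomm40l (3.33). The other runs were Tstd1 (-3.81) with F11r (1.13), and RT1-A2 with RT1-A1, each pair with opposite signs.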

How the data were processed

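Punches of 1 mm from frozen sections were taken for total RNA sequencing. Per the labels and the study's methods, the authors aligned reads to rn6 with STAR inside RSEM and deposited expected counts per gene. The methods name ComBat_seq, and it is not stated whether the tables hold adjusted values; 4.88% of the RVLM values were not whole (by over 1e-06). The counts were rounded here. Genes with an rlog value of at least 3.5 in any RVLM library were kept. edgeR 4.0.16 (R 4.3.3) fitted all 46 RVLM libraries with TMM scaling and a robust quasi-likelihood test, 1 group per strain and age. Called genes had an adjusted p no higher than 0.01 and a log2 fold change of 1 or more in size. Regions were compared in 1 fit over the 27 libraries of the 9 rats, with the rat as a block. Named genes are the 12 highest and 12 lowest log2 fold changes among called genes with a mean of at least 20 counts and a symbol, 3 placeholders in each direction, list members at an adjusted p under 0.05 and others of the same lists, the 5 lowest p of each age or region contrast, and genes the study names. The members, lists and tests were chosen with earlier results of these data known. The scripts were tested on simulated data. DESeq2 1.42.0, limma 3.58.1 and sva 3.50.0 served as alternatives. Library columns end in 1 or 2, a number whose meaning is not given in the sources used here; at 12 wk, SHR 6 alone ends in 2. Each library is 1 rat. The p-values of the strain test rest on the spread between rats of a group, pooled over all 46 RVLM libraries. Those of the region contrasts rest on the spread between punches within rats. Total counts of 7986077 to 14991722 limit the precision of low genes, and counting intervals are exact at 95%. RefSeq promoter windows and gene order are of GRCr8, and coordinates of the deposited build were not used.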

Additional observations from a re-analysis of the deposited data

Results flagged for a closer look

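In the SHR group, 1 rat stood apart from the other 5 for 8 of 56 genes by Dixon's criterion, which chance meets in about 1 of 20 groups. SHR 1 was the highest for Nppa (40.4 CPM, next 18.5), Pxmp4 (50.4 CPM, next 39), Tstd1 (2.79 CPM, next 1.33) and RT1-A1 (161 CPM, next 142). SHR 6 was the lowest for Spock2 (170 CPM, next 231), Tapbp (41.3 CPM, next 61.1) and AABR07052523.1 (7.44 CPM, next 14.2). For Ifit1, SHR 5 was the highest (29.9 CPM, next 17.4). SHR 1 is also the library with the high complex I and ribosomal sums, and its part in these values was not tested.

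The strain effect at 12 wk differed from its mean at the other ages for AABR07064061.1 (-2.84), tested as a contrast in edgeR. The strain effect in the RVLM differed from that in the NTS of the same rats for Igfbp5 (2.71), Ttc21a (2.02), Amhr2 (1.69), Cbs (1.15), C1r (1.1), Terf2ip (0.952), Aldh1a1 (-1.02) and Sema7a (-1.17), each given as the log2 fold change in the RVLM minus that in the NTS.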

How the results depend on the processing

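The 129 called genes became 71 (32 higher, 39 lower) with the replicate number as a block, 79 (40 and 39) when the fit held the 12 wk libraries only, 57 (31 and 26) at over 2 on the log2 scale and 228 (117 and 111) at an adjusted p under 0.05 alone. They were 104 to 130 with each rat left out in turn. Of the 129 genes, 68 were kept with the block, 79 with the 12 wk libraries alone, and 106, 100 and 100 without WKY 1, 2 and 3. DESeq2 (141), voom (123), filterByExpr (135), no filter (135), DESeq2's size factors (129), the library number as a term (139) and 2 surrogate variables (139) gave counts within 1.5 times. Same-numbered rats of the strains correlated at -0.13 to 0.34, over 0.1 in 2 of 3 pairs. Differently numbered rats correlated at -0.43 to 0.49, so 3 pairs are too few to show whether the numbers pair the rats.

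The age contrast, with 1 gene, gave 0 with no filter, with voom, with the replicate block and with the library number as a term, 4 with DESeq2, and 0 to 1 with a rat left out. The RVLM and NTS contrast, with 8 genes, gave 14 with filterByExpr, 18 with voom, 5 with the replicate block, 24 with every library of the series, and 0 to 9 with a rat left out (0 without WKY 2, 1 without SHR 5). The CVLM contrast, with 0 genes, gave 0 to 1 with a rat left out (1 without SHR 2 or SHR 5). The causes were not tested.

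Of 846 alternative values of the 47 named genes that passed, 787 stayed past the threshold, 59 did not and 0 reversed. RT1-Db1 (11), Nppa (9), Pld5 (7) and Abat (6) lost most. Of 936 values of 52 named genes that did not pass, 4 did (Kcne5, Aldh1a1 and Ramp1). Depth limits genes with few counts, such as Ifit1 in WKY rats. The summed Cfb and alpha-globin models were chosen after seeing the data.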

Other observations

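The following called genes were named after their values were seen. The insulin receptor gene Insr averaged 4.97 CPM in SHRs and 14.8 CPM in WKY rats (log2 fold change -1.57), and Pik3r1, a regulatory subunit of phosphoinositide 3-kinase, 29.1 and 84.7 CPM (-1.54). Txnip, a thioredoxin-binding protein that responds to glucose, averaged 19.8 and 47.2 CPM (-1.25). Among genes with mitochondrial products, Dnaja3 (-1.09), Cisd2 (-1.10) and Mul1 (-1.15) were lower, while Tomm40l, given above, was higher (3.33). Chi3l1, a secreted chitinase-like protein of reactive glia, was higher in SHRs (81.4 and 23.3 CPM, 1.804), as were the tissue factor gene F3 (1.13), the metal transporter of phagocytes Slc11a1 (1.84) and the inflammatory caspase Casp4 (1.37). Fibronectin (Fn1, -1.02) and the transcription factor Pbx3 (-1.31) were lower.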
